A study of Homo sapiens with 6 samples.

Results

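The NRF2 pathway was followed through 30 genes chosen by name: the transcription factor NRF2 (gene NFE2L2), its partners and brakes, and antioxidant enzymes and transporters commonly counted among its targets. All 30 were rows of the count table of 37923 genes, and 27 passed the filter on low counts and were tested. RNA was sequenced from 6 samples of cells labelled RKO, a human colorectal carcinoma line, 3 libraries from Control cells and 3 from cells labelled ENZ. According to the design text, the ENZ cells were given compound A3, a degrader of the demethylase LSD1, and RNA was taken at 48 h. The replicates are called biological there. The labels do not say what ENZ stands for, and no value here checks the treatment, so each difference below is between libraries labelled ENZ and libraries labelled Control. The sources used here name no vehicle for Control and no separate cultures, passages or days. P-values therefore measure the spread between these libraries, which may be technical.

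NRF2 is held at a low level in resting cells by KEAP1, an adaptor that presents it to a CUL3 ubiquitin ligase. Electrophiles and oxidants modify KEAP1, NRF2 escapes and enters the nucleus, pairs with a small MAF protein and binds antioxidant response elements near its targets, where BACH1 competes with it. The targets supply NADPH, reduce quinones and carbonyls, recycle thioredoxin and peroxiredoxins, break down haem and export conjugates.

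Library totals ran from 26691289 to 30025543 counts. Where a library had 0 counts, counting error alone leaves room for 3, or 0.0999 to 0.112 CPM (counts per 1000000 counts of the library). The labelled cell type was checked against markers. Of 10 prostate luminal markers 8 had a mean over 10 CPM, with FOLH1 at 626 and KLK4 at 153 CPM in Control, whereas 5 of 7 colon epithelium markers had a mean under 1 CPM, CDX1 and KRT20 being at or near 0. Not every marker followed this split: the colon marker VIL1 had 39.9 CPM in Control and 57.8 in ENZ, and the prostate markers KLK3 and TMPRSS2 had 4.91 and 6.73 CPM in Control. Most of these markers go against the label RKO, so the cells are called here by their label only. Markers of leukocytes (6 of 6) and endothelium (4 of 4) had means under 1 CPM. The fibroblast list summed to 77.6 to 86.7 CPM in Control and 40.1 to 43.0 in ENZ, led by LUM (67.4 and 29.2 CPM) and COL1A1 (11.5 and 12.1), with COL1A2 at or near 0, and its part in the results below was not tested.

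The element NRF2 binds has the core TGACNNNGC, which was searched for, on both strands, in RefSeq promoter windows (GRCh38.p14) from 250 bases before to 50 after each annotated start. Windows were found for 24 members, and those of 8 held the core (33.3%), against 16.1% of all 27305 genes of the table. In windows reaching 1000 bases before the start, read from hg38, 13 of 24 members held it (54.2%), against 37.4% of all genes. The form TGACTCAGC, whose first 7 letters are also the AP-1 motif TGACTCA, was present in 4 of 24 members (16.7%) and in 1.83% of all genes. That form and the longer window were chosen after the first search. The 4 members with this form are shown with 10 bases on each side, 5′ to 3′ on the strand that reads the core, with the core in capitals.
NQO1: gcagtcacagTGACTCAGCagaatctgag
TALDO1: acccagggacTGACTCAGCataagcggac
ME1: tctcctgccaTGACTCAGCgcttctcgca
PIR: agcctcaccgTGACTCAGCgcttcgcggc
The NQO1 stretch lies at chr16:69726997-69727025 (minus strand), its core 455 bases before the start. The TALDO1 stretch is at chr11:746501-746529 (plus strand), 953 bases before the start, and that of ME1 at chr6:83431170-83431198 (minus strand), 137 bases before it. In PIR it is at chrX:15493289-15493317 (plus strand), 26 bases after the start. NQO1 rose in ENZ, whereas TALDO1, ME1 and PIR showed no called difference by the test given below. A match describes the sequence only; binding was not measured here.

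TXNRD1, the member that fell most clearly, held the core at 2 places in the window chr12:104215529-104215828 (plus strand), given here whole with the matches in capitals, 99 and 8 bases before the start.
TXNRD1: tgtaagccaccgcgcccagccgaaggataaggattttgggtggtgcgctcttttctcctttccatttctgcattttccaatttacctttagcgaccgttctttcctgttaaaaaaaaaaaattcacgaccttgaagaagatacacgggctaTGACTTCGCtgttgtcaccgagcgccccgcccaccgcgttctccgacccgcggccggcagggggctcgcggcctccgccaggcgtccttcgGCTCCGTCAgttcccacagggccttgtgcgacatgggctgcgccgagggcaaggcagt
The second match reads the core on the minus strand. Another TXNRD1 window, chr12:104286782-104287081 (plus strand), held 1 core, 102 bases before its start. Cores from 3 members that rose are set beside those of TXNRD1, again with 10 bases on each side.
CBR1: ccagctagccTGACTTTGCagaacccgca
KEAP1: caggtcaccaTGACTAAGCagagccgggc
EPHX1: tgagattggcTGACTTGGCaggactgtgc
They lie at chr21:36069855-36069883 (minus strand), chr19:10502784-10502812 (plus strand) and chr1:225825266-225825294 (plus strand), with cores 159, 31 and 78 bases before a start. These members were picked for display. MAFG, TKT, AKR1C1, AKR1C2, AKR1C3, ABCC2 and ABHD4, which rose, and UGDH, which fell, had windows without the core at either length.

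The question was which parts of this pathway differed in transcript level between ENZ and Control. Among the members, quinone- and carbonyl-reducing enzymes rose the most, with AKR1C2, AKR1C3, AKR1C1 and NQO1 between 1.53-fold and 1.96-fold higher in ENZ. TKT of the pentose phosphate pathway rose 1.47-fold, HMOX1 1.35-fold and the peroxiredoxin PRDX1 1.19-fold. The thioredoxin reductase TXNRD1 fell, and NFE2L2 itself was not called. Calls were made where the adjusted p was under 0.05 (edgeR's quasi-likelihood test, adjusted by Benjamini-Hochberg over all 18581 genes tested); all adjusted p-values below are from that test unless another is named. In bulk RNA, a lower level may mean fewer cells that express the gene or less RNA in each, which cannot be told apart.

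Of the 27 tested members 15 rose and 2 fell, while the calls over all tested genes were 20.5% higher and 19.3% lower (39.8% both ways). Among the tested members these shares were 55.6% and 7.41%. The members were chosen with earlier results of these data known, so the shares describe this list and test nothing. The members' median log2 fold change (ENZ over Control) was 0.13, and that of all tested genes was −0.01. None of the members passed the series' own limit of an absolute log2 fold change over 1, which 2.98% of all tested genes passed. The CPM of all 3 ENZ libraries lay above all 3 Control libraries in 14 tested members and below them in 2, against 21.7% and 27.6% of all tested genes (49.2% together).

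**Figure D1:**
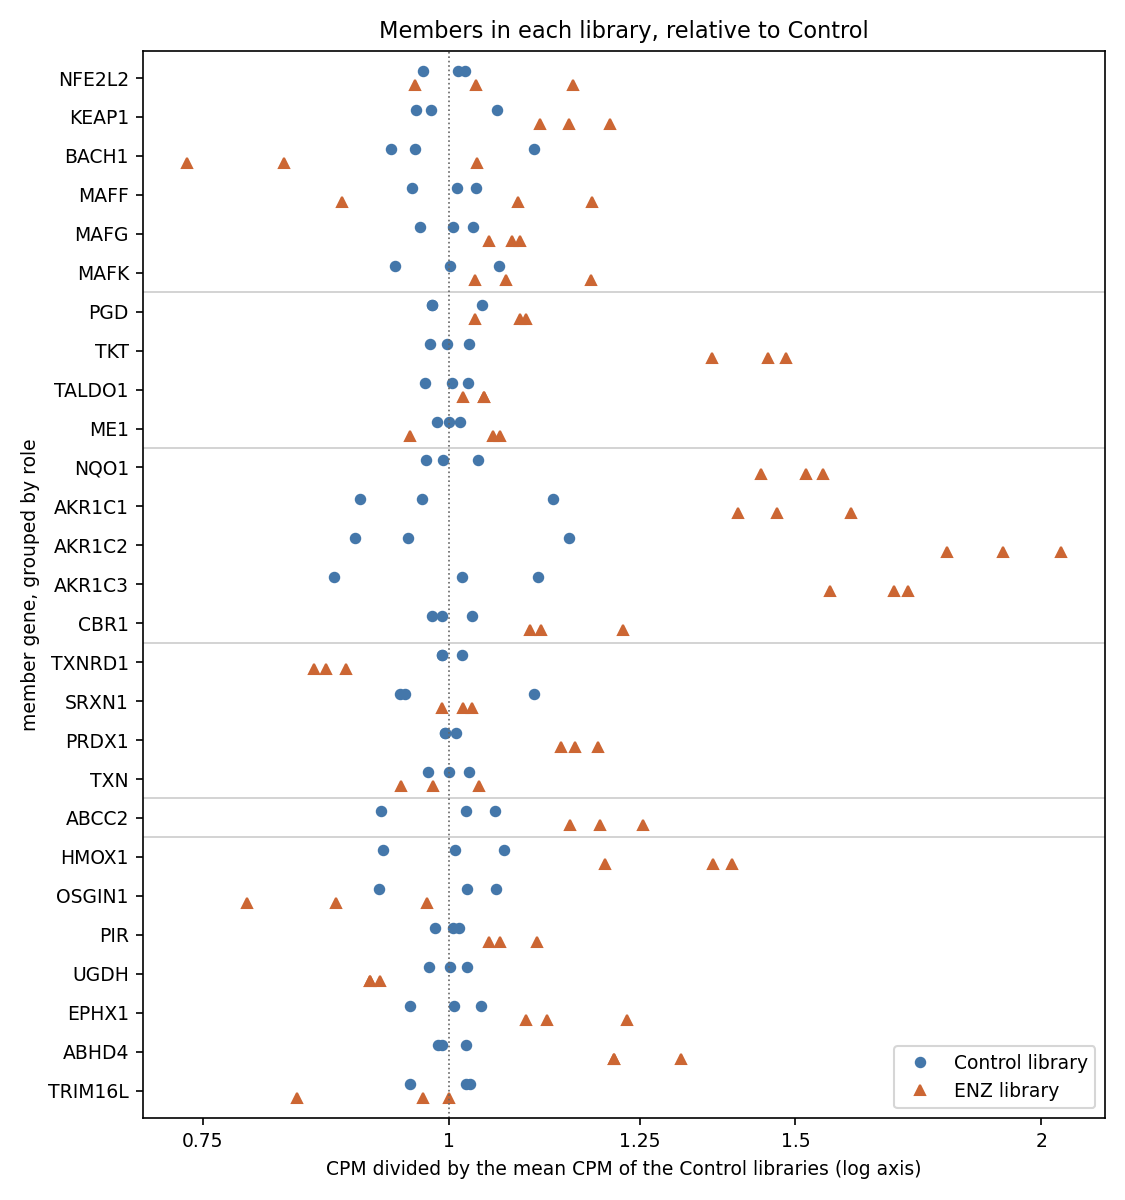
CPM of each of the 27 tested members in each library, divided by the mean of the 3 Control libraries (log axis), with circles for Control, triangles for ENZ and lines between roles. The ENZ triangles of NQO1, TKT and the AKR1C genes lie to the right of all their Control circles, and those of TXNRD1 and UGDH to the left.

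The regulators changed little. NFE2L2 had 56.3, 53.6 and 55.8 CPM in the Control libraries and 63.9, 57.0 and 53.1 in ENZ, groups that overlapped. Its log2 fold change was 0.11 (95% confidence interval −0.01 to 0.22; adjusted p = 0.145). The call depended on 1 library and on composition: without ENZ replicate 3 the log2 fold change was 0.16 (adjusted p = 0.0232), and offsets for GC content and length gave 0.24 (adjusted p = 2.37e-05). NFE2L2 (chromosome 2, 177218667 to 177392756, GRCh38) shares 5293 bases with HNRNPA3 on the opposite strand, and the library kit does not keep strand, so its counts are uncertain. Other members' gene spans also overlap genes with reads, which leaves the same doubt. Among them are MAFG (3054 bases, SIRT7), MAFF (14012, PLA2G6), MAFK (809, TMEM184A) and PRDX1 (2469, MMACHC).

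KEAP1, the adaptor that marks NRF2 for breakdown, rose from 86.1, 94.7 and 87.6 CPM to 99.5, 103 and 108, with no overlap (log2 fold change 0.24 ± 0.05 SE; adjusted p = 3.85e-04). KEAP1 was at 0.13 with GC and length offsets (adjusted p = 0.00341), and its call ended on unfiltered log2(FPKM + 1) (adjusted p = 0.0573). BACH1, the repressor that competes for the same elements, had 20.1, 17.0 and 17.5 CPM in Control and 18.8, 15.0 and 13.4 in ENZ. ENZ replicate 1 lay among the Control values and the other ENZ libraries lay below them. BACH1's log2 fold change was −0.18 (interval −0.40 to 0.05; adjusted p = 0.198), and without ENZ replicate 1 it was −0.32 with a call (adjusted p = 0.00235). BACH1 was at −0.07 without ENZ replicate 3 and at −0.01 with GC and length offsets (adjusted p = 0.957).

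The small MAF proteins are the DNA-binding partners that NRF2 and BACH1 share. MAFG rose from 83.5, 85.5 and 80.4 CPM to 87.1, 89.5 and 90.3 (log2 fold change 0.13 ± 0.04; adjusted p = 0.0207). MAFK rose from 48.0, 54.2 and 51.2 CPM to 52.7, 54.7 and 60.4, with overlap between the groups (0.16 ± 0.06; adjusted p = 0.0354). Neither call was firm. Both ended on library totals alone, on FPKM values, with GC and length offsets (0.03 and 0.01), and without any 1 of Control replicates 1 and 3 and ENZ replicates 2 and 3 (0.11 to 0.13 for MAFG and 0.10 to 0.18 for MAFK). MAFK's call also ended in DESeq2 (adjusted p = 0.0537). MAFF had 17.5, 17.9 and 16.6 CPM in Control and 15.3, 18.8 and 20.5 in ENZ, the 3 ENZ values falling on both sides of Control (log2 fold change 0.10; adjusted p = 0.401). Without ENZ replicate 1 MAFF was called at 0.23 (adjusted p = 0.0163), and GC and length offsets took it to −0.03. Of the 6 regulators 3 rose (KEAP1, MAFG and MAFK) and 0 fell, with a median of 0.12. Among all tested genes 20.5% were called higher and 19.3% lower.

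The NADPH group also holds enzymes of the non-oxidative pentose phosphate branch, which yield no NADPH themselves, and among its members TKT stood out. This transketolase of the non-oxidative pentose phosphate pathway had 366, 383 and 373 CPM in Control and 509, 543 and 555 in ENZ. The groups were far apart, at 374 ± 8.50 and 535 ± 24.0 CPM (SD, n = 3), a log2 fold change of 0.55 ± 0.04 (adjusted p = 1.80e-10). TKT (ENSG00000163931) lies on chromosome 3 from 53224712 to 53256052 (GRCh38). PGD, the oxidative-branch dehydrogenase that yields NADPH, rose by far less, from 231, 245 and 231 CPM to 243, 256 and 258, with overlap (0.13 ± 0.04; adjusted p = 0.0102). That call ended without Control replicate 1, Control replicate 3 or ENZ replicate 2, each at 0.12, and on FPKM values.

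TALDO1, the transaldolase that works beside TKT, had 161, 164 and 156 CPM in Control and 163, 167 and 167 in ENZ. Its log2 fold change was 0.08 (interval 0.00 to 0.16; adjusted p = 0.0907). The groups overlapped; TALDO1 was called without ENZ replicate 1 (0.10, adjusted p = 0.0201) and with GC and length offsets (0.09, adjusted p = 0.0139). ME1, the cytosolic malic enzyme, had 22.3, 22.6 and 22.9 CPM in Control and 23.8, 21.6 and 24.0 in ENZ (a log2 difference of 0.07; adjusted p = 0.419), and 0.25 with GC and length offsets (adjusted p = 0.00193). In all, 2 of the 4 members (TKT and PGD) rose and 0 fell, with a median of 0.11. The shares of all tested genes called higher and lower were 20.5% and 19.3%.

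A wider list of NADPH sources and pentose phosphate enzymes gave 2 rises and 1 fall among 11 tested (18.2% and 9.09%, against 20.5% and 19.3% of all tested genes). PGLS, a lactonase of the oxidative branch, rose by 0.25 on the log2 scale (45.1 to 52.5 CPM), and the isocitrate dehydrogenase IDH1 rose by 0.14 (406 to 438 CPM; 0.26 with GC and length offsets). RPE, the ribulose-phosphate epimerase, fell by 0.22 (66.1 to 55.5 CPM), but its log2 fold change was 0.02 with GC and length offsets. The list's median was 0.04.

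All 5 tested quinone and carbonyl reductase members rose (100%, against 20.5% of all tested genes called higher), and their median log2 fold change was 0.62. AKR1C1, AKR1C2 and AKR1C3 are among them and may share reads. NQO1, which reduces quinones by a pair of electrons and avoids semiquinones, had 39.8, 42.3 and 40.6 CPM in Control and 58.9, 62.1 and 63.4 in ENZ. The groups did not overlap, and the log2 fold change was 0.62 ± 0.05 (40.9 ± 1.22 to 61.5 ± 2.32 CPM, SD, n = 3; adjusted p = 4.20e-09). NQO1 (ENSG00000181019) lies on chromosome 16 from 69706996 to 69726668 (GRCh38). CBR1, a carbonyl reductase, rose less, from 35.6, 34.4 and 34.0 CPM to 38.1, 38.6 and 42.5 (0.23 ± 0.06; adjusted p = 0.00310). It overlaps SETD4 along its whole length of 3226 bases on the opposite strand.

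The aldo-keto reductases AKR1C1, AKR1C2 and AKR1C3 act on steroids, prostaglandins and carbonyls, and AKR1C3 makes active androgens in prostate tissue. Their genes stand in 1 cluster on chromosome 10, between 4963253 (the start of AKR1C1) and 5107686 (the end of AKR1C3). AKR1C3 was the most abundant, with 6.49, 7.54 and 8.24 CPM in Control and 12.7, 12.5 and 11.6 in ENZ (log2 fold change 0.76 ± 0.10; adjusted p = 1.86e-06). AKR1C2 had 1.49, 1.40 and 1.80 CPM in Control and 2.80, 2.99 and 3.20 in ENZ (0.97 ± 0.17; adjusted p = 1.14e-04). Both genes were higher in every ENZ library than in any Control library.

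AKR1C1 followed at low counts, from 29, 26 and 32 reads to 51, 40 and 46. Its log2 fold change was 0.62 ± 0.22 (interval 0.17 to 1.06; adjusted p = 0.0271). That call ended in DESeq2 (adjusted p = 0.144) and without Control replicate 1, Control replicate 2, ENZ replicate 1 or ENZ replicate 3 (log2 fold changes 0.55 to 0.62). AKR1C4, the next gene of the cluster (chromosome 10, 5195462 to 5218949), had 0 or 1 read in every library. The AKR1C genes are near-identical in sequence, reads could have been split between them, and the values of each are uncertain. Their summed CPM was 9, 9.90 and 11.2 in Control and 17.2, 17.0 and 16.4 in ENZ.

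The AKR1B genes were silent at this depth. AKR1B1, aldose reductase, had 1, 1 and 0 reads in Control and 0 in each ENZ library, and AKR1B10 had 1 read in Control replicate 2 and 0 elsewhere. Both were under the limit of 3 counts and were not tested. AKR1B15, the near-identical neighbour of AKR1B10, had 0 reads.

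**Figure D2:**
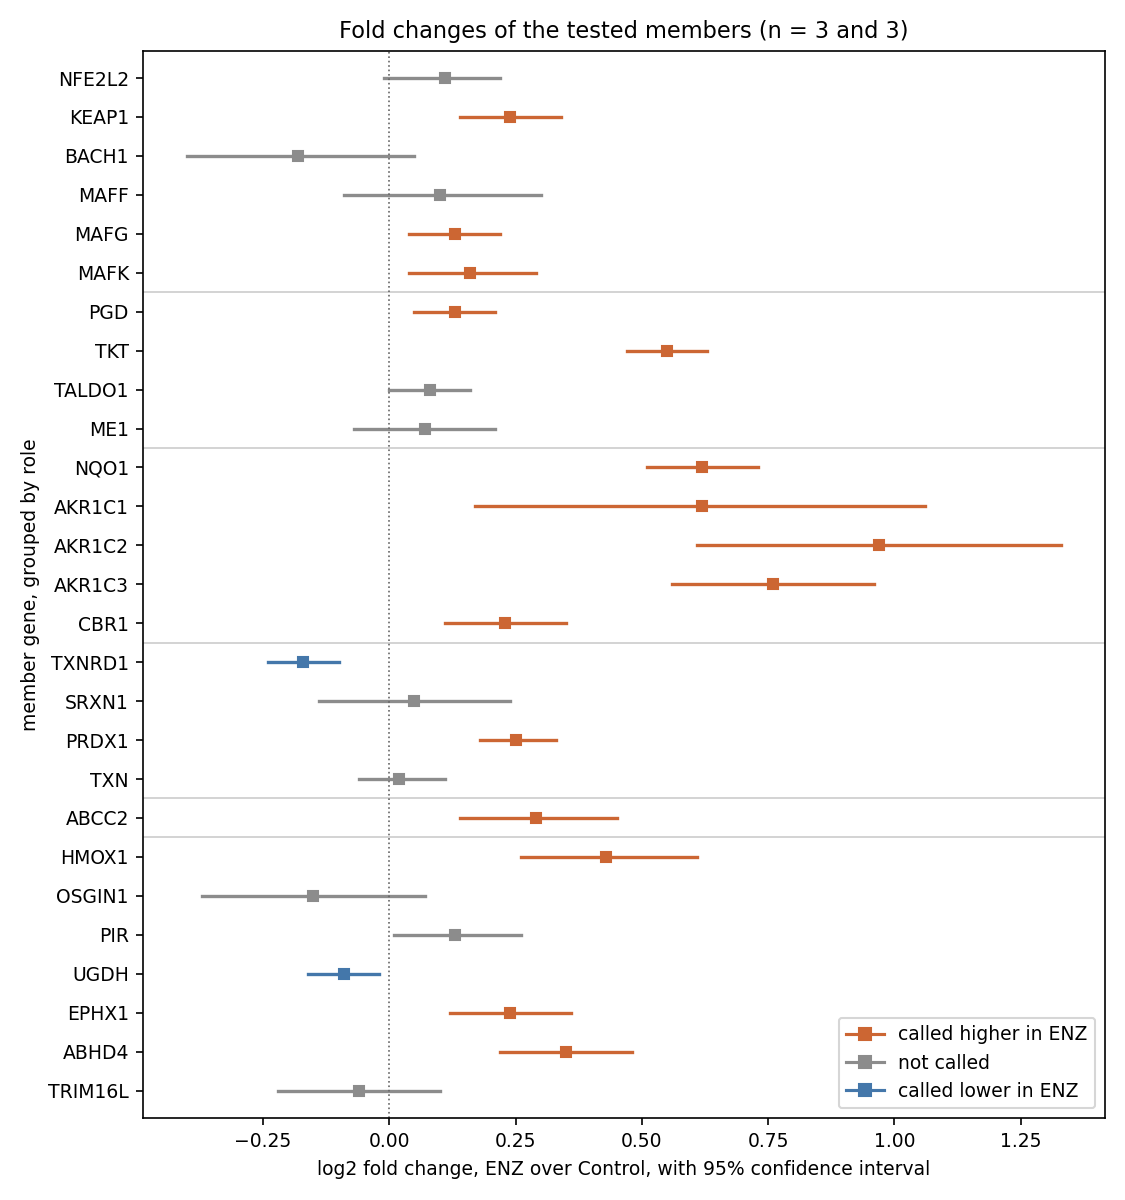
Log2 fold change of each of the 27 tested members, ENZ over Control, with its 95% confidence interval, coloured by call and grouped by role. Quinone and carbonyl reductases reach from 0.23 to 0.97, while the 4 thioredoxin members lie between −0.17 and 0.25.

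The thioredoxin members split. TXNRD1, the selenoprotein reductase that recycles thioredoxin, fell from 394, 394 and 403 CPM to 352, 339 and 344, with no overlap (log2 fold change −0.17 ± 0.03; adjusted p = 3.59e-04). In all 17 alternatives its log2 fold change stayed between −0.20 and −0.11 with a call. TXNRD1 (chromosome 12, 104215779 to 104350307, GRCh38) contains the pseudogene RPL18AP3, which was counted separately. PRDX1, a peroxiredoxin that removes hydrogen peroxide and is reduced by thioredoxin, moved the other way, from 311, 315 and 311 CPM to 356, 362 and 372 (0.25 ± 0.03; adjusted p = 5.38e-06). Its groups were also apart.

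TXN, the thioredoxin itself, had 166, 162 and 170 CPM in Control and 157, 163 and 172 in ENZ, ENZ lying on both sides of Control. Its log2 fold change was 0.02 (interval −0.06 to 0.11; adjusted p = 0.713). With GC and length offsets TXN was at 0.36 with a call (adjusted p = 0.0147); it has the shortest transcript among the members, 737 bases, and the lowest GC content, 36.8%. SRXN1, sulfiredoxin, which repairs overoxidised peroxiredoxins, had 8.97, 10.5 and 9.03 CPM in Control and 9.76, 9.42 and 9.66 in ENZ, a difference of 0.05 on the log2 scale (interval −0.14 to 0.24; adjusted p = 0.697). Of the 4 members 1 rose and 1 fell, where 20.5% of all tested genes were called higher and 19.3% lower. With so few members this split was not tested against those shares.

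In the wider thioredoxin and glutaredoxin family 2 genes rose and 3 fell among 14 tested, with a median of 0.03. These are 14.3% and 21.4%, close to the 20.5% and 19.3% of all tested genes. TXNIP, the protein that binds and inhibits thioredoxin, fell from 70.4, 66.0 and 63.4 CPM to 33.7, 34.8 and 34.5, the groups lying far apart (log2 fold change −0.92 ± 0.05; adjusted p = 6.46e-12). The glutaredoxin GLRX fell from 4.5 to 2.43 CPM (−0.86 ± 0.14; adjusted p = 5.63e-05). GLRX2 fell by 0.31, from 78.6 to 61.9 CPM, a call that ended with GC and length offsets (−0.08). The peroxiredoxin PRDX5 rose by 0.40 (126 to 162 CPM) and the mitochondrial thioredoxin TXN2 by 0.15 (111 to 120 CPM).

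Only 1 of the 2 transporter members could be tested. ABCC2, an efflux pump for glutathione and glucuronide conjugates, rose from 15.3, 14.8 and 13.4 CPM to 18.2, 17.3 and 16.7, with no overlap (log2 fold change 0.29 ± 0.08; adjusted p = 0.00385). ABCC3, a related pump, had 1, 3 and 1 reads in Control and 9, 3 and 2 in ENZ. Its 2 groups overlapped, and at such counts no fold is given. Of the related pumps on the wider list, ABCC1 rose from 91.8, 91.0 and 90.1 CPM to 115, 113 and 108 (0.33 ± 0.04; adjusted p = 1.26e-06). ABCC4 fell from 36.8, 35.1 and 37.8 CPM to 20.3, 17.9 and 18.2 (−0.92 ± 0.06; adjusted p = 1.80e-10). ABCC5 had 48.0 CPM in Control and 46.0 in ENZ and was not called (log2 fold change −0.02; adjusted p = 0.735). Of these related pumps 1 thus rose, 1 fell and 1 was not called.

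HMOX1, haem oxygenase, which opens haem and frees its iron, rose from 12.5, 13.6 and 14.4 CPM to 16.2, 18.4 and 18.8, with no overlap (log2 fold change 0.43 ± 0.08; adjusted p = 2.39e-04). The biliverdin reductases that act on its product also rose: BLVRA from 58.0 to 70.4 CPM (0.31 ± 0.05; adjusted p = 1.74e-05) and BLVRB from 109 to 137 CPM (0.37 ± 0.05; adjusted p = 3.95e-06). FTL, the light chain of the iron store ferritin, rose from 329, 313 and 326 CPM to 391, 430 and 424 (0.40 ± 0.04; adjusted p = 6.44e-08). The heavy chain FTH1 had overlapping groups (468 ± 48.9 and 530 ± 14.7 CPM, SD, n = 3; adjusted p = 0.0441), and its call ended in 8 of 17 alternatives. Among those 8 were the fits without Control replicate 1 (0.21) and without ENZ replicates 1, 2 or 3 (0.24, 0.20 and 0.21).

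Both subunits of glutamate-cysteine ligase, on the same list, fell. GCLC, the catalytic subunit, which takes the first step of glutathione synthesis, fell from 149, 144 and 149 CPM to 122, 119 and 118 (log2 fold change −0.26 ± 0.04; adjusted p = 1.12e-05). GCLM, the modifier subunit, fell from 61.7, 62.9 and 65.0 CPM to 60.7, 52.2 and 49.4 (−0.19 ± 0.06; adjusted p = 0.0178). GCLM's call was less firm: it ended without Control replicate 2 or 3 (−0.19 and −0.17) and without ENZ replicate 2 or 3 (−0.16 and −0.13). With GC and length offsets GCLM was at 0.01. Of the 16 tested genes on this list of glutathione and other targets 5 rose and 3 fell, with a median of 0.04. That is 31.2% and 18.8%, against 20.5% and 19.3% of all tested genes.

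**Figure D3:**
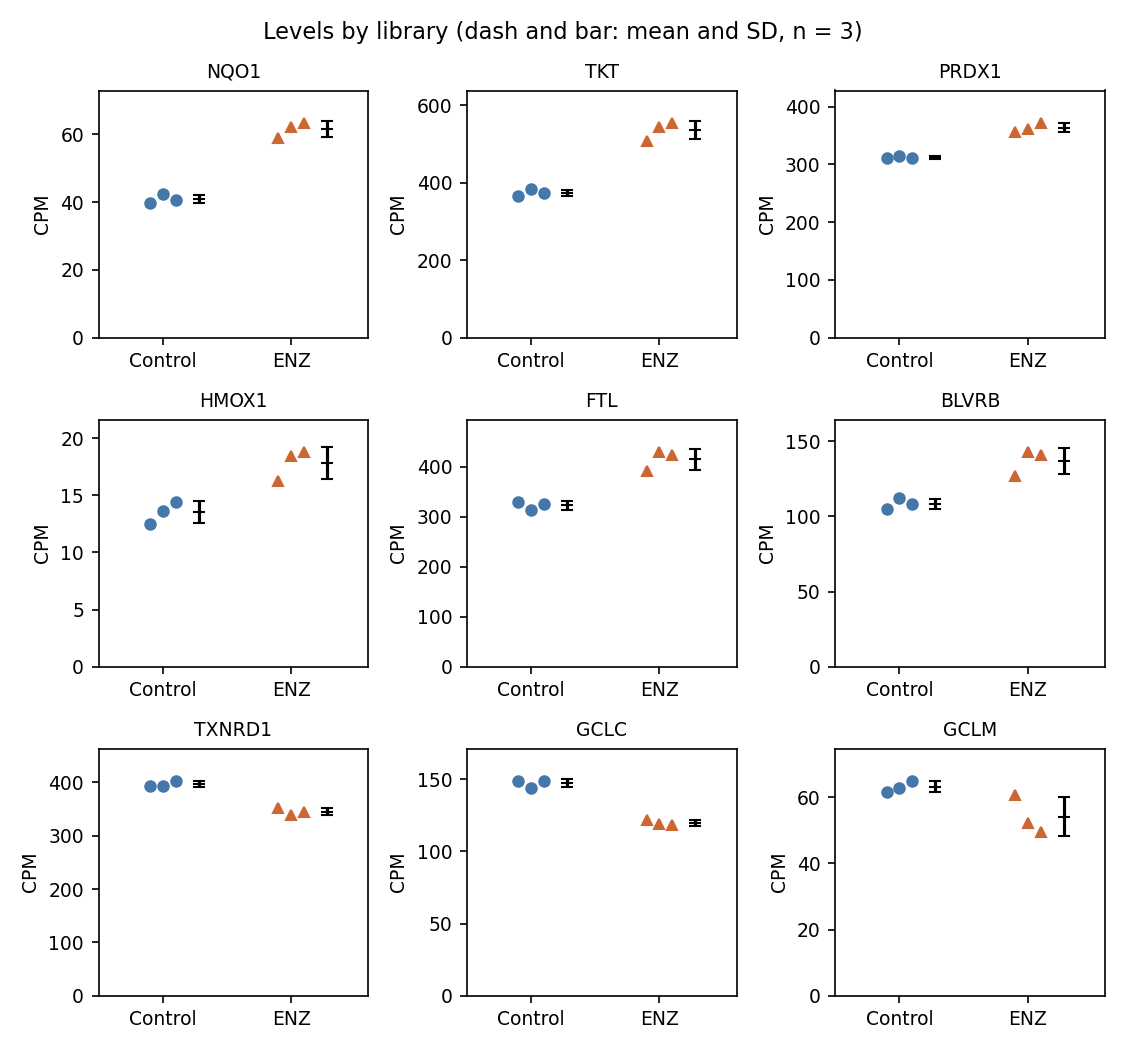
CPM of 9 genes in each library (points), with the mean and SD of each group of 3 (dash and bar); every axis starts at 0. NQO1, TKT, PRDX1, HMOX1, FTL and BLVRB are higher in every ENZ library, and TXNRD1, GCLC and GCLM are lower.

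The remaining targets differed in direction. ABHD4, a lipid hydrolase, rose from 24.1, 24.2 and 24.9 CPM to 29.6, 29.6 and 32 (log2 fold change 0.35 ± 0.06; adjusted p = 9.60e-05). EPHX1, microsomal epoxide hydrolase, rose from 40, 38.0 and 41.3 CPM to 43.5, 44.6 and 49.0 (0.24 ± 0.06; adjusted p = 0.00254). In both genes every ENZ library was above every Control library. UGDH, which makes UDP-glucuronate for glucuronidation, fell from 293, 286 and 299 CPM to 267, 270 and 267 (−0.09 ± 0.03; adjusted p = 0.0362). UGDH's small change was not stable: with GC and length offsets it was a called rise of 0.09 (adjusted p = 0.0329). The call also ended in DESeq2, with no filter on low counts and without Control replicate 1 or 3 or ENZ replicate 2 or 3 (−0.10 to −0.08).

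PIR, an iron-binding nuclear protein, had 28.4, 27.6 and 28.2 CPM in Control and 29.8, 31.1 and 29.4 in ENZ. Its groups did not overlap, but the test missed the threshold (log2 fold change 0.13, interval 0.01 to 0.26; adjusted p = 0.0709), which it passed with GC and length offsets (0.16, adjusted p = 0.0164). OSGIN1, an oxidative stress-induced growth inhibitor, had 8.33, 8.06 and 7.27 CPM in Control and 6.23, 6.91 and 7.69 in ENZ, with overlap (−0.15; adjusted p = 0.280). With GC and length offsets OSGIN1 was called lower (−0.28, adjusted p = 0.0256). TRIM16L had 20.8, 19.4 and 20.7 CPM in Control and 17.0, 19.7 and 20.3 in ENZ (−0.06; adjusted p = 0.556). The annotation types TRIM16L as a transcribed pseudogene, and its parent TRIM16 (14.3 and 15.1 CPM; adjusted p = 0.282) may share reads with it. Of these 7 targets, HMOX1 included, 3 rose and 1 fell (42.9% and 14.3%, against 20.5% and 19.3% of all tested genes).

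Proteins that turn NRF2 over or work with it were read from a further list of 17 tested genes, of which 7 rose and 1 fell (41.2% and 5.88%, against 20.5% and 19.3% of all tested genes), with a median of 0.09. SQSTM1 (p62), which can sequester KEAP1 and is itself an NRF2 target, rose from 118, 122 and 118 CPM to 144, 157 and 151 (log2 fold change 0.37 ± 0.04; adjusted p = 5.11e-07). NFE2L1, the related factor NRF1, rose from 301 to 383 CPM (0.38 ± 0.04; adjusted p = 5.08e-08). BACH2, the relative of BACH1, rose from 2.30, 1.99 and 2.47 CPM to 4.20, 3.89 and 3.91 (0.86 ± 0.15; adjusted p = 6.57e-05). Its level stayed low.

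CUL3, the scaffold of the KEAP1 ligase, had 133 CPM in Control and 126 in ENZ and was not called (log2 fold change −0.04, interval −0.13 to 0.06; adjusted p = 0.539). FBXW11, a relative of BTRC, was not called either (0.08; adjusted p = 0.139). With GC and length offsets both were called higher (CUL3 0.15, adjusted p = 2.62e-04; FBXW11 0.14, adjusted p = 0.00250), and FBXW11 was also called without ENZ replicate 1 (0.10, adjusted p = 0.0469). Other ligase parts were called. RBX1, the ring subunit of cullin ligases, rose by 0.30 (45.9 to 55.3 CPM), and BTRC, the substrate adaptor of the KEAP1-independent route, rose by 0.24 (37.7 to 43.4 CPM). SYVN1, an endoplasmic reticulum ligase also linked to NRF2 breakdown, fell by 0.22 (84.5 to 70.9 CPM). The coactivators CREBBP and EP300 rose by 0.20 (0.12 with GC and length offsets) and 0.12; the EP300 call ended on library totals alone, on FPKM values and without Control replicate 1 or 3 (0.12 and 0.10).

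Levels between genes were compared per length, as FPKM (fragments per 1000 bases of gene length and 1000000 counts). PRDX1 was the most abundant member in both groups, at 186 ± 1.37 FPKM in Control and 216 ± 4.81 in ENZ, followed by TXN at 164 ± 3.87 and 163 ± 7.15 (SD, n = 3). In Control UGDH (72.7 FPKM) and PGD (70.8) came next and overlapped, then TXNRD1 (59.2), TALDO1 (55.1) and TKT (39.4), each clear of the next. In ENZ the order of these changed. PGD (75.7 FPKM) stood above UGDH (66.5), TKT (56.4) overlapped TALDO1 (57.0), and TXNRD1 (51.4) came below both. NQO1 passed from 13.8 to 20.7 FPKM, and from the 12th to the 9th place. KEAP1 (25 and 28.9 FPKM) was above NFE2L2 (9.74 and 10.2) in every library.

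**Figure D4:**
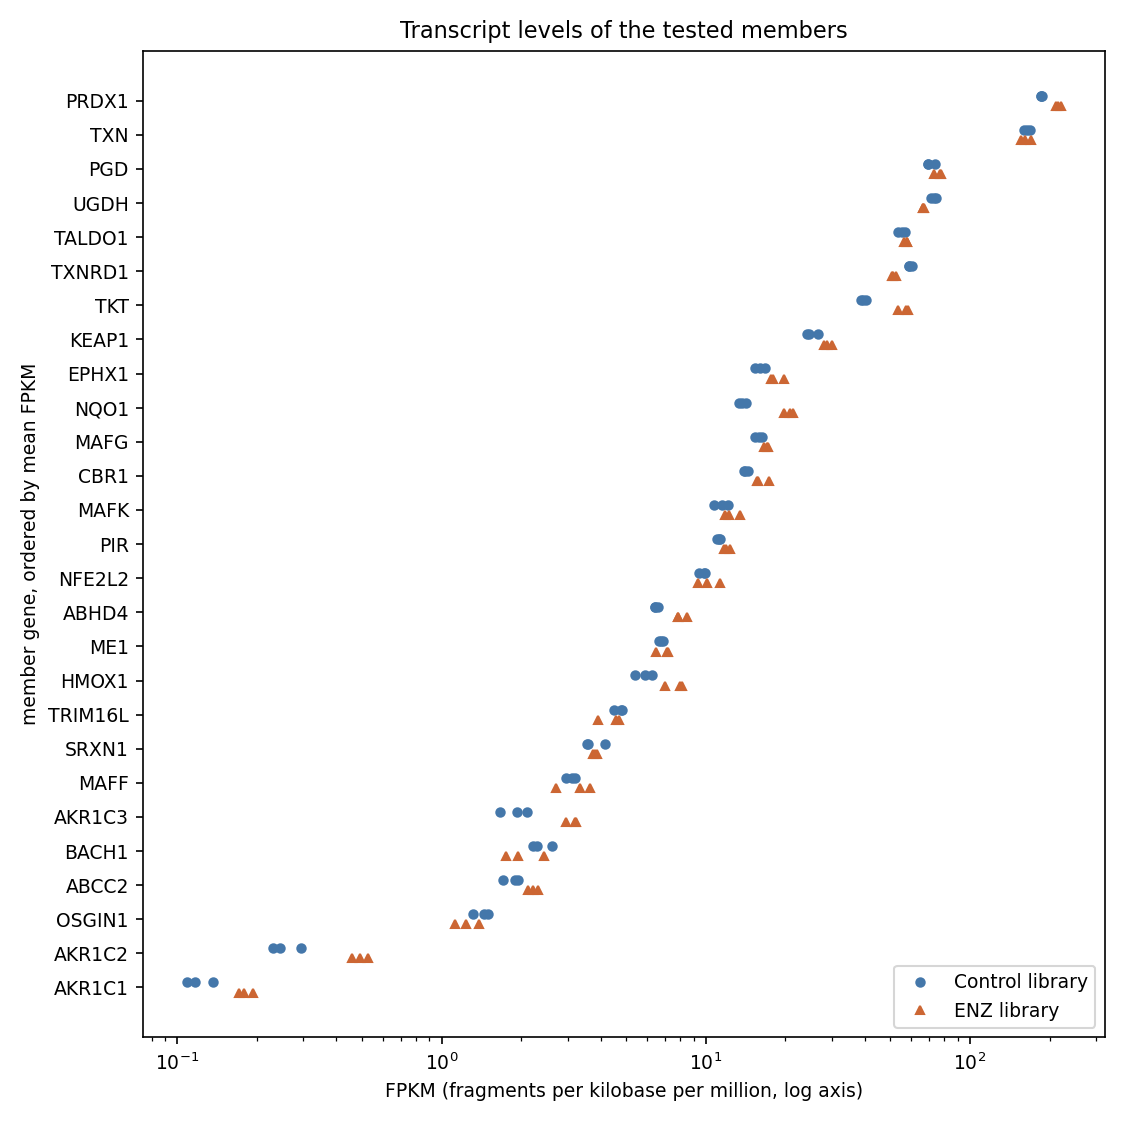
FPKM of the 27 tested members in each library (log axis), ordered by their mean, with circles for Control and triangles for ENZ. Levels run from 0.109 FPKM in the lowest library for AKR1C1 to 221 for PRDX1 in ENZ, and TKT and TXNRD1 change order.

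Across all genes, transcripts richer in GC had higher fold changes, so each member was set beside genes of like composition. Genes under 40% GC had a median log2 fold change of −0.18, and genes over 60% had 0.14. Of the 8 tested members between 40% and 50% GC, 6 rose, where 17.0% of the genes in that band were called higher; these were NQO1, the 3 AKR1C genes, PRDX1 and ABCC2. In the band from 50% to 60% the figures were 7 of 11 and 26.5%, and over 60%, 2 of 4 and 36.1%. Under 40% GC 0 of 4 members rose, against 5.76% of genes. With GC and length offsets 13 of the 15 rises remained called, those of MAFG and MAFK being lost, and 19 members in all were called higher and 2 lower, where 26.4% and 16.8% of all genes were (43.2% together).

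**Figure D5:**
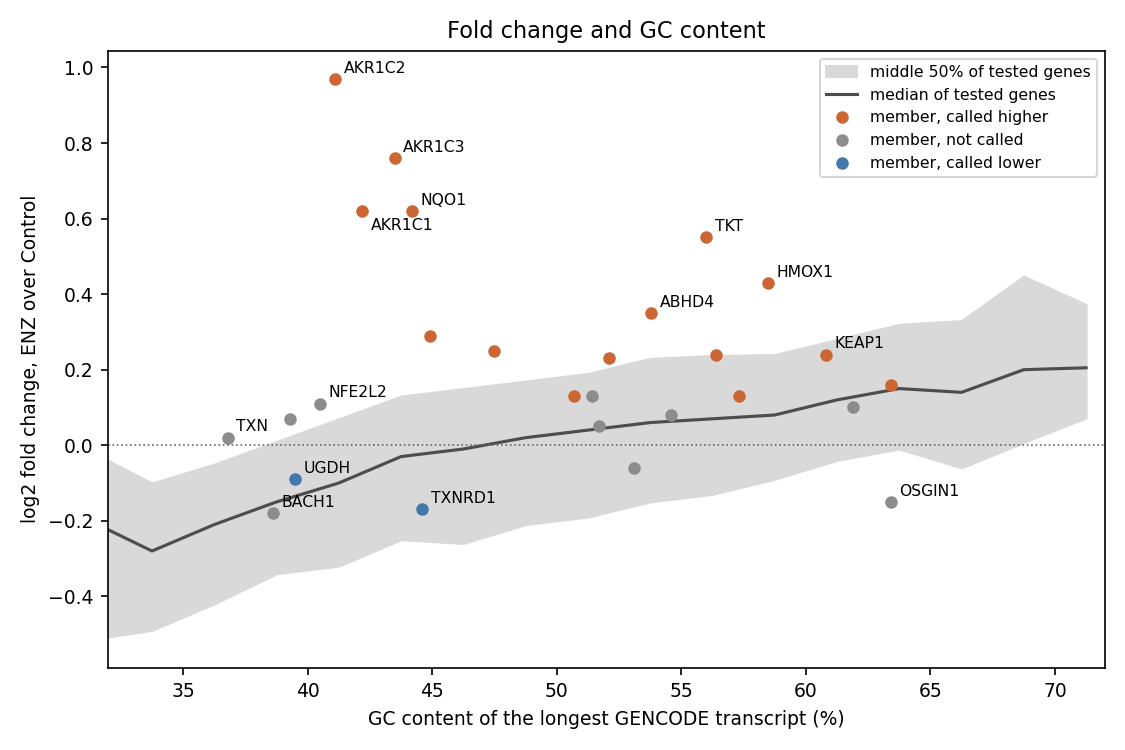
Log2 fold change (ENZ over Control) against the GC content of the longest annotated transcript; the line and band give the median and the middle 50% of tested genes in steps of GC content, and points are the 27 tested members by call. NQO1, TKT, HMOX1, ABHD4 and the AKR1C genes lie above the band, and OSGIN1 lies below it.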

How the data were processed

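Per the submitters' processing notes, HISAT2 2.0.5, HTSeq 0.6.1 and DESeq2 1.20.0 were used with GRCh38 (hg38); the sources used here state no annotation release, strand setting or filter. Raw gene-level counts and FPKM were deposited by the authors, and the FPKM equalled count over length and library total to within 4.37e-06 percent. Counts were fitted with edgeR 4.0.16 (R 4.3.3; TMM factors, default filter, robust quasi-likelihood F test, groups only); SE is the absolute log2 fold change over the square root of F. Alternatives were other scalings and filters, DESeq2 1.42.0, limma 3.58.1 (voom, and on log2 FPKM), a replicate block, GC and length offsets (splines) and each library left out. On simulated data with 200 changed genes the edgeR fit recovered 64.0% at an absolute log2 fold change of 0.5 and 93.1% at 1. Smaller changes were not simulated, and 7393 genes were called in the data. These rates therefore do not tell how often changes as small as most members' would be called. Positions, GC content and lengths come from GENCODE release 44. Members and lists were chosen with earlier results of these data known. All members were named; of other genes, those called, at 1 CPM or more and at 0.5 or more were named by rule (BACH2, ABCC4, TXNIP and GLRX), and the rest were chosen after their values were seen. Genes without a symbol held 0.875% of counts.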

Additional observations from a re-analysis of the deposited data

How the results depend on the processing

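Counts of members moved most on log2(FPKM + 1) without a filter, where 7 were called higher (all genes: 1723, or 4.71%, higher and 2005 lower). Over all genes, log2(FPKM + 1) and log2(FPKM + 0.1) with a mean of at least 1 gave 2526 and 2520 higher, on fewer genes. The members called lower came to 1 with no filter on low counts and in DESeq2. With 1 library left out, members called higher ran from 11 to 16 and lower from 1 to 3, and all genes from 3041 to 4264 higher and 2782 to 3994 lower. Role medians with GC and length offsets were 0.02 for regulators, 0.19 for NADPH members, 0.72 for quinone members and 0.19 for thioredoxin members. The quinone median was 0.52 on log2(FPKM + 1) with the filter and 0.25 without. The filter drops AKR1C1 and AKR1C2, so these medians cover different genes. The transporter value was 0.18 in both, and the regulator median ran from 0.11 to 0.18 with 1 library left out. The longer promoter window, chosen after seeing the data, gave 13 members with the core in place of 8. Directions reversed with offsets for MAFF (−0.03), UGDH (0.09), GCLM (0.01), RPE (0.02) and CUL3 (0.15). TXN was at −0.01 on library totals alone and on all FPKM settings, and ran from −0.02 without ENZ replicate 3 to 0.06 without ENZ replicate 1. TRIM16L ran from −0.12 without ENZ replicate 3 to 0.02 without ENZ replicate 1, and ABCC5 from −0.05 without Control replicate 1 to 0 without Control replicate 3. Unfiltered log2(FPKM + 1), which shrinks low genes by construction, gave AKR1C1 0.08, AKR1C2 0.25, ABCC2 0.18, BACH2 0.18 and GLRX −0.31. It ended the calls of AKR1C1, ABCC2 and BACH2, and also those of the members KEAP1, MAFG, MAFK, PGD, CBR1 and EPHX1. Of the other genes, RBX1, BTRC, CREBBP, EP300, GCLM, FTH1, IDH1 and TXN2 lost their calls there too. Not all of these were low genes, PGD having a mean of 73.2 FPKM. The other causes of these changes were not tested. With the replicate block 15 members rose and 2 fell, and 3832 and 3634 of all genes. Same-numbered libraries did not deviate together (correlations 0.02, −0.01 and −0.05), and not every library correlated best with its own number, so the numbers were not read as pairs. Depth limits AKR1C1, ABCC3 and the AKR1B genes.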

Other observations

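Summed over each role, the members' transcripts differed in how far the groups lay apart. The NADPH group together took 780 to 816 CPM in the Control libraries and 938 to 1005 in ENZ. Its member TKT alone had means of 374 CPM in Control and 535 in ENZ. The quinone and carbonyl reductase members took 84.5 to 86.7 and 114 to 122 CPM. The regulators took 309 to 323 and 337 to 345 CPM. Thioredoxin members overlapped, at 880 to 893 CPM in Control and 873 to 898 in ENZ, and so did HMOX1, OSGIN1, PIR, UGDH, EPHX1, ABHD4 and TRIM16L together, at 417 to 435 and 409 to 424 CPM. These sums are led by the most abundant gene of each role and were not tested.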
